A study of Mus musculus with 2 samples.

Results

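The liver disposes of amino acid nitrogen and of surplus amino acid carbon. Its cells carry a complete urea cycle, the breakdown routes of tyrosine, tryptophan and histidine, the betaine-dependent branch of the methionine cycle, and the enzymes that turn amino acid carbon into glucose. Many of these enzymes are made mainly in liver, with kidney or intestine as further sites for some, and several switch on late in gestation or around birth. The diaphragm is the breathing muscle that lies against the liver on its abdominal face and against the lungs on its thoracic face.

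Here 36 genes of these routes were followed in diaphragm muscle from mouse embryos of the C57/BL6 strain at stage E18.5, shortly before birth. There was 1 array of a sample labelled RP58-/- (knockout) and 1 of a sample labelled RP58+/+ (wild type). RP58 is the zinc finger repressor now called Zbtb18, and no other allele, agent or treatment is given for either sample. The sources used here do not give how the knockout allele was made or whether embryos were pooled. The members were taken by gene symbol: probe sets whose only annotated symbol was on the list were kept, and each gene was read from the probe set with the highest mean of the 2 arrays, so the difference between genotypes played no part in the choice of probe set. The members and the lists set beside them were chosen with earlier results of these data known, so their counts are descriptions. Of the 36 listed genes, 34 had such a probe set, among 18194 genes on the array. Sds and Gls2 were not analysed here.

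Values are deposited log2 signals, and a difference is knockout minus wild type. Differences of at least 1.5-fold (0.58 on the log2 scale) in either direction were counted as higher or lower. A floor at a mean signal of 5.52, the 40th percentile over probe sets, set dim genes aside. With 1 array per genotype there was no replicate, so no test was possible, no p-value is given, and each direction describes these 2 arrays. The spread available is that between probe sets of the same gene, with a pooled SD of 0.28 over 5677 genes, which leaves out the variation between embryos, dissections and hybridisations.

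A few facts of the arrays bear on every value. The probe set for Zbtb18 read 9.21 on the knockout-labelled array and 8.91 on the wild-type-labelled array, so the labels could not be checked from the targeted gene. Whether that probe set falls inside the deleted sequence is unknown, and each direction therefore rests on the labels. Sex-linked signals also differed, with Xist at 6.96 against 11.47 and the Y-linked gene Eif2s3y at 8.58 against 3.59 for knockout against wild type, so genotype and the sex-linked signal cannot be told apart. The labelled tissue was evident on both arrays, where the fast myosin light chain gene Mylpf read 13.61 (knockout) and 14.20 (wild type). Albumin, the main plasma protein made by liver, read 14.30 (knockout) and 14.23 (wild type), near the top of the scale on both. All 24 probe sets of the poly-A spike-in controls were lower on the knockout-labelled array, by a median difference of -0.75.

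The enzyme genes were higher on the knockout-labelled array nearly throughout. Of 34 genes with a probe set, 33 lay above the floor, and all 33 did so on each array separately. Among them 27 were higher by at least 1.5-fold, 0 were lower, and 6 were within it. Over all 14094 genes above the floor, 3.83% were higher and 6.51% were lower by the same rule. At 2-fold, 18 of the 33 were higher, against 0.908% of all genes. The median difference of the enzyme genes was 1.16 (2.23-fold), with quartiles of 0.72 and 1.29, whereas the median over all genes was -0.003. In these bulk samples, more cells of a type and more RNA per cell cannot be told apart.

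**Figure D1:**
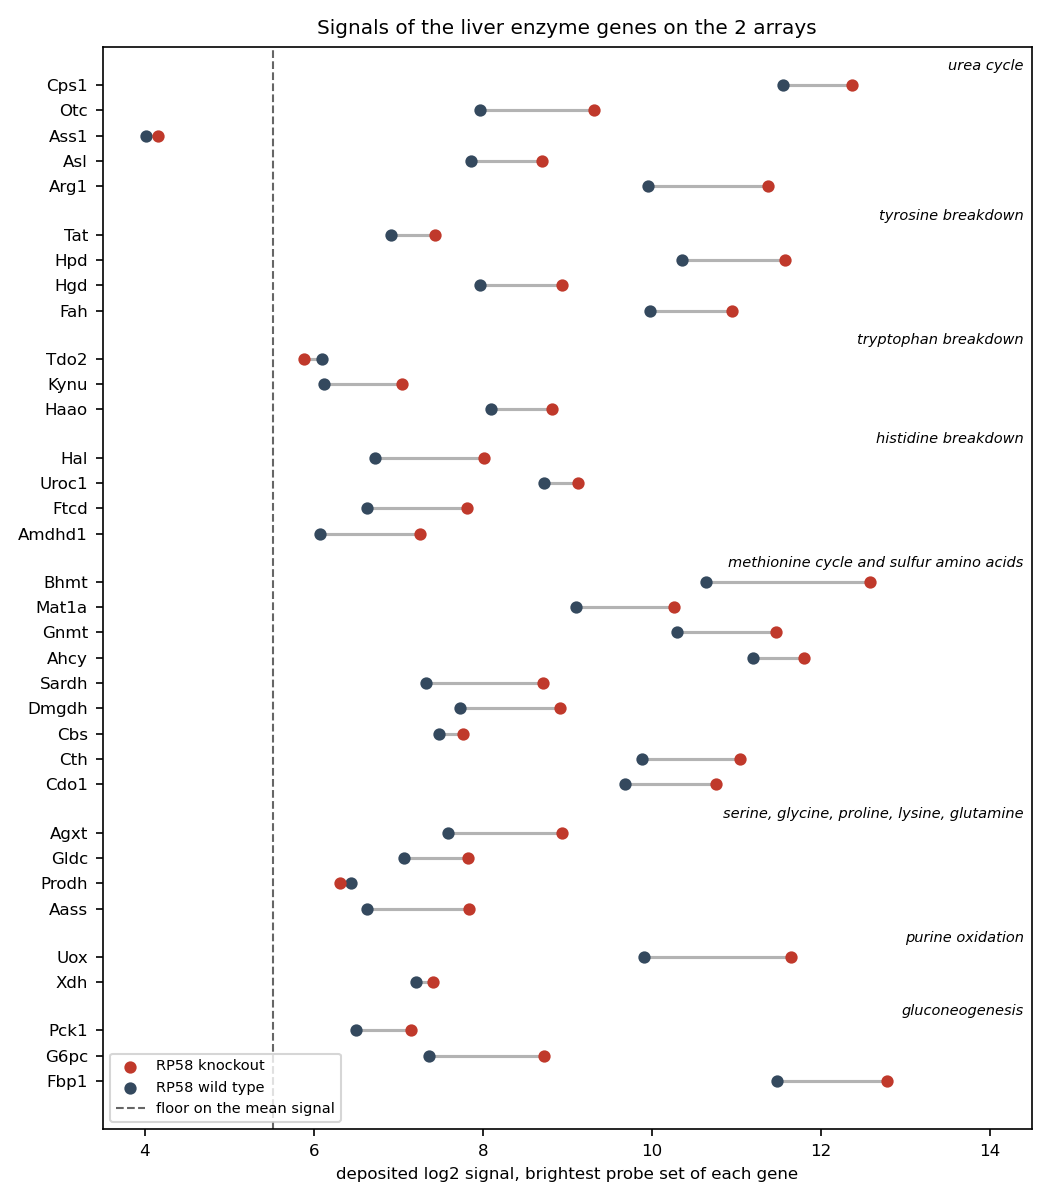
Deposited log2 signal (horizontal axis) of each enzyme gene on the knockout-labelled array (red) and the wild-type-labelled array (dark blue), grouped by pathway, with the floor on the mean signal at 5.52 as a dashed line. The red point lies to the right for all genes drawn except Tdo2 and Prodh, and only Ass1 lies under the floor.

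The values of the 2 genotypes stood apart most for Bhmt and Uox, which ranked the 7th and the 10th highest among all 14094 genes. Of the 100 highest genes, 18 were members of the list, which holds 33 of the 14094 genes. How many of the 100 came from other liver lists was not counted. The start regions of 4 members are shown here because they stand at the ends of this range or hold a searched motif: Bhmt and Uox as the members with the largest differences, Hgd as the other member with the RP58 motif, and Tdo2 as the member with the lowest difference. Each runs from 250 bases before to 50 bases after the annotated start, 5′ to 3′ on the strand of the gene, from RefSeq on build GRCm38.p6. Capitals mark a match on either strand to ACATCTG, the core that RP58 binds, or to GTTAAT, part of the site of the liver factor HNF1. They mark in the same way CAAAGTCCA, an element bound by the liver factor HNF4, and TATAAA, the letters of the TATA box. These motifs do not overlap in the regions shown. The TATAAA matches in Tdo2 and Hgd lie far upstream of the start, and whether they act as a TATA box was not tested.
Bhmt (chr13:93637709-93638008, minus strand): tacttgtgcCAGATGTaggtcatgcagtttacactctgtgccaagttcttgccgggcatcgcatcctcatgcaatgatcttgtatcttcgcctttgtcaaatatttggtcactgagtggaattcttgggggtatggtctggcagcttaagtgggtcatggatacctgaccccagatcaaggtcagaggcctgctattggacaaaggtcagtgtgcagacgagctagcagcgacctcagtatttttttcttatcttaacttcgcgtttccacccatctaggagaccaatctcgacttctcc
Uox (chr3:146596899-146597198, plus strand): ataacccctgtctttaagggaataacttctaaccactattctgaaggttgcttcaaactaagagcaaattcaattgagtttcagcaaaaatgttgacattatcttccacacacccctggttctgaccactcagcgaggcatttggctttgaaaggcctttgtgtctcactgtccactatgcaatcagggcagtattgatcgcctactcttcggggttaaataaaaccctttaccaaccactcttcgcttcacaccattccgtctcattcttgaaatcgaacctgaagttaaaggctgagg
Hgd (chr16:37579903-37580202, plus strand): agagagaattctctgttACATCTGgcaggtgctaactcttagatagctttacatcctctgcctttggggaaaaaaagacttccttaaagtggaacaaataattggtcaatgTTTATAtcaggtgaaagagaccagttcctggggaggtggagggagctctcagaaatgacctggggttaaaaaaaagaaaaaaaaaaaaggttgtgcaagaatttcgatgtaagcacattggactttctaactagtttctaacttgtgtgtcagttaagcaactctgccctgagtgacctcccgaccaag
Tdo2 (chr3:81975679-81975978, minus strand): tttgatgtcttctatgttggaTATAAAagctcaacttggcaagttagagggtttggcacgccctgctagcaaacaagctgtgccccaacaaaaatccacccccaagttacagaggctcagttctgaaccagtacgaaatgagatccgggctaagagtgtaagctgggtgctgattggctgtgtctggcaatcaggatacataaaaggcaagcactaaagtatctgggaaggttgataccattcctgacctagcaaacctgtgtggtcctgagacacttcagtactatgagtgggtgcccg

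Promoter entries were found for 25 of the 33 genes. ACATCTG or its reverse CAGATGT was present in 2 of the 25, Bhmt and Hgd (8%), against 4.43% of all 32851 promoters of this length. GTTAAT was present in 4 of the 25 (Pck1, Ftcd, G6pc and Haao; 16%), against 7.10% of all. TATAAA was present in 5 (Tdo2, Ftcd, Hal, G6pc and Hgd; 20%), against 13.6% of all. CAAAGTCCA was in 0 of the 25 and in 0.475% of all. The Bhmt window holds the RP58 letters far upstream of the start, and the Uox window holds none of the searched letters. A match describes these letters only and was not tied to the differences in signal.

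The urea cycle turns ammonia into urea in periportal liver cells, and all 4 of its enzymes above the floor were higher. Cps1, the mitochondrial carbamoyl phosphate synthetase that opens the cycle, had a log2 signal of 12.37 on the knockout-labelled array and 11.56 on the wild-type-labelled array, a difference of 0.82 (1.76-fold). Otc, the X-linked enzyme that joins carbamoyl phosphate to ornithine, read 9.32 and 7.97 (difference 1.35, 2.55-fold), and its other probe set above the floor gave 1.17. Asl, which releases arginine from argininosuccinate, read 8.70 and 7.86 (difference 0.83). Arg1, the liver arginase that forms urea, read 11.37 and 9.96 (difference 1.41, 2.66-fold), the largest difference of the 4. Ass1, the enzyme between Otc and Asl, was read only by a dim probe set under the floor, at 4.15 (knockout) and 4.02 (wild type), so its level was not measured here. On these 2 arrays Cps1 and Asl differed by near 0.8 and Otc and Arg1 by near 1.4, an order that was not tested.

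In tyrosine breakdown 3 of the 4 listed enzymes were higher at their brightest probe set. Tat, the aminotransferase that starts the route and is induced by glucocorticoids around birth, read 7.43 on the knockout-labelled array and 6.91 on the wild-type-labelled array, a difference of 0.52 that missed 1.5-fold. Hpd, the dioxygenase that makes homogentisate, read 11.58 and 10.36 (difference 1.22, 2.32-fold). Hgd, which opens the homogentisate ring and is the enzyme lost in alkaptonuria, read 8.94 and 7.97 (difference 0.97). A dimmer probe set of Hgd gave -0.05 at a signal near 6.3, and the mean over the Hgd probe sets was 0.46, under the rule. Fah, the last enzyme of the route, read 10.95 and 9.98 (difference 0.98). Gstz1, the isomerase just before Fah and not on the list, differed by 0.78.

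In tryptophan breakdown 2 of the 3 listed enzymes were higher. Tdo2, the liver dioxygenase that commits tryptophan to the kynurenine route, read 5.88 (knockout) and 6.10 (wild type), close to the floor, and its difference of -0.22 lay within the pooled SD. Kynu, kynureninase, read 7.04 and 6.13 (difference 0.91), although its dimmer probe set, under the floor, gave -0.02. Haao, which makes the quinolinate precursor, read 8.82 and 8.10 (difference 0.72). Of the neighbouring steps outside the list, Kmo, the hydroxylase before Kynu, differed by 0.74, Qprt, which takes quinolinate towards NAD, by 0.70, and Afmid, the formamidase after Tdo2, by 0.45.

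The histidine route, which ends in folate-bound formimino groups, had 3 of 4 genes higher. Hal, histidine ammonia-lyase, read 8.02 on the knockout-labelled array and 6.72 on the wild-type-labelled array (difference 1.29, 2.45-fold). Uroc1, the urocanase that acts next, differed least, with 9.13 and 8.72 (difference 0.41) and 0.51 at its other probe set, both within 1.5-fold. Amdhd1, the amidohydrolase of the third step, read 7.26 and 6.08 (difference 1.18). Ftcd, the formiminotransferase that closes the route, read 7.82 and 6.63 (difference 1.18).

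The methionine cycle and sulfur amino acid group held the gene with the largest difference, and 8 of its 9 genes were higher. Bhmt, which remethylates homocysteine with betaine, read 12.58 on the knockout-labelled array and 10.64 on the wild-type-labelled array, a difference of 1.94 (3.84-fold). Mat1a, the liver form of methionine adenosyltransferase, read 10.27 and 9.10 (difference 1.17). Gnmt, the abundant liver methyltransferase that consumes S-adenosylmethionine, read 11.47 and 10.30 (difference 1.17). Ahcy, the hydrolase of S-adenosylhomocysteine used by most cells, read 11.81 and 11.19, and its difference of 0.61 was just past 1.5-fold.

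Enzymes that strip methyl groups from the products of choline went the same way as Bhmt. Dmgdh, dimethylglycine dehydrogenase, read 8.91 on the knockout-labelled array and 7.73 on the wild-type-labelled array (difference 1.18), and Sardh, sarcosine dehydrogenase, read 8.71 and 7.33 (difference 1.38, with 1.14 at its other probe set). Chdh, the choline dehydrogenase that opens this chain, was not on the list and differed by 1.16. Aldh7a1, an aldehyde dehydrogenase able to make betaine, differed by 0.72. From choline to glycine each of these measured steps (Chdh, Aldh7a1, Bhmt, Dmgdh and Sardh) was therefore past 1.5-fold.

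Transsulfuration, which carries homocysteine sulfur to cysteine, was uneven. Cbs, the enzyme that condenses homocysteine with serine, read 7.77 on the knockout-labelled array and 7.48 on the wild-type-labelled array at its brightest probe set (difference 0.28), within the rule, and differed by 0.70 at the other, which was past it. Each of these Cbs probe sets is of a kind that can detect several transcripts. Cth, which releases cysteine, read 11.04 and 9.88 (difference 1.16), and Cdo1, the dioxygenase that oxidises cysteine, read 10.76 and 9.68 (difference 1.08).

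Of the serine, glycine, proline and lysine enzymes, 3 of 4 were higher. Agxt, the peroxisomal enzyme that removes glyoxylate and is lost in primary hyperoxaluria, read 8.94 on the knockout-labelled array and 7.59 on the wild-type-labelled array (difference 1.35, 2.55-fold). Aass, which opens lysine breakdown, read 7.83 and 6.63 (difference 1.20). Gldc, the decarboxylase of the glycine cleavage system, read 7.82 and 7.07 (difference 0.75). Prodh, the proline dehydrogenase also made in brain and other tissues, read 6.30 and 6.44, and its difference of -0.13 lay within the pooled SD.

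The purine enzymes differed from each other. Uox, the peroxisomal urate oxidase of rodent liver, read 11.65 on the knockout-labelled array and 9.91 on the wild-type-labelled array (difference 1.74, 3.34-fold). Xdh, which makes urate and is also expressed in endothelium and epithelia, read 7.41 and 7.21 (difference 0.20), within the pooled SD. In gluconeogenesis all 3 genes were higher. G6pc, the phosphatase that releases glucose, read 8.73 and 7.36 (difference 1.36). Fbp1, the liver and kidney fructose bisphosphatase, read 12.78 and 11.49 (difference 1.29). Pck1, the cytosolic carboxykinase whose expression in liver begins around birth, read 7.16 and 6.49 (difference 0.66), and its probe sets under the floor gave 0.41 and 0.29.

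**Figure D2:**
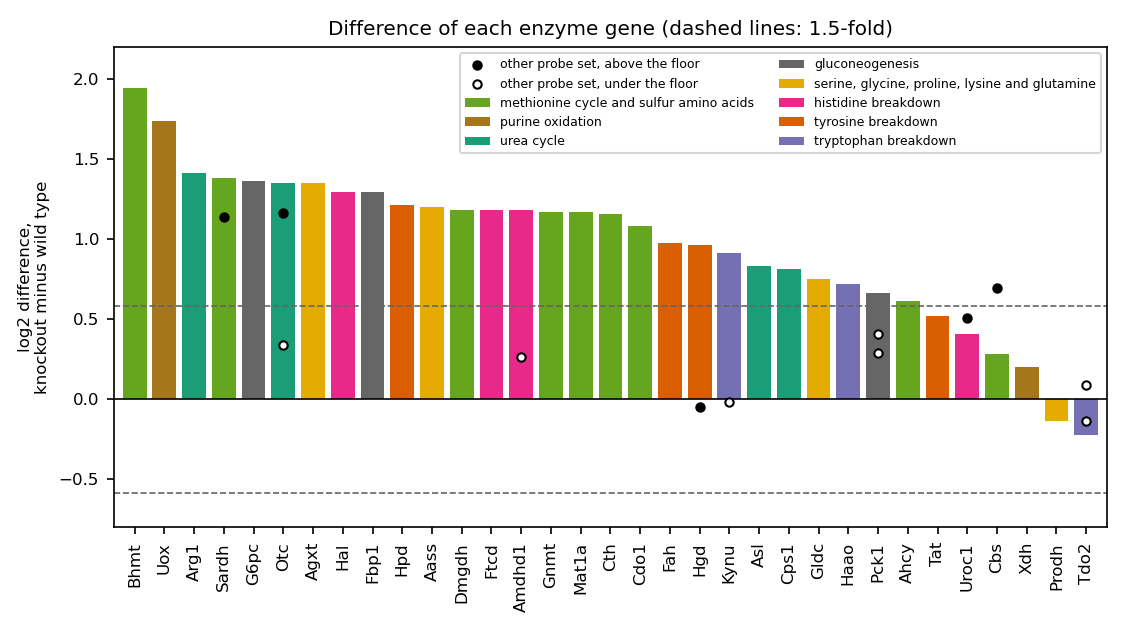
Log2 difference, knockout minus wild type, of each of the 33 enzyme genes above the floor (bars, coloured by pathway, ordered by size), with its other probe sets as points, filled above the floor and open under it. Bars run from 1.94 for Bhmt to -0.22 for Tdo2, dashed lines mark 1.5-fold, and the filled points fall on the other side of the dashed line from their bar for Hgd and Cbs.

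The 6 genes within 1.5-fold were Tat, Uroc1, Cbs, Xdh, Prodh and Tdo2. Nearest to the limit were Ahcy (0.61), past it, and Tat (0.52), short of it. Of 5 further probe sets of members above the floor, 4 were above 0 and 3 were past 1.5-fold, those of Otc, Sardh and Cbs. The difference of a member and its mean signal had a Pearson r of 0.48 across the 33 genes, against -0.06 across all genes, so brighter members tended to differ more. These points share both arrays, and the RMA summary compresses the differences of dim probe sets, so the r is a description.

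**Figure D3:**
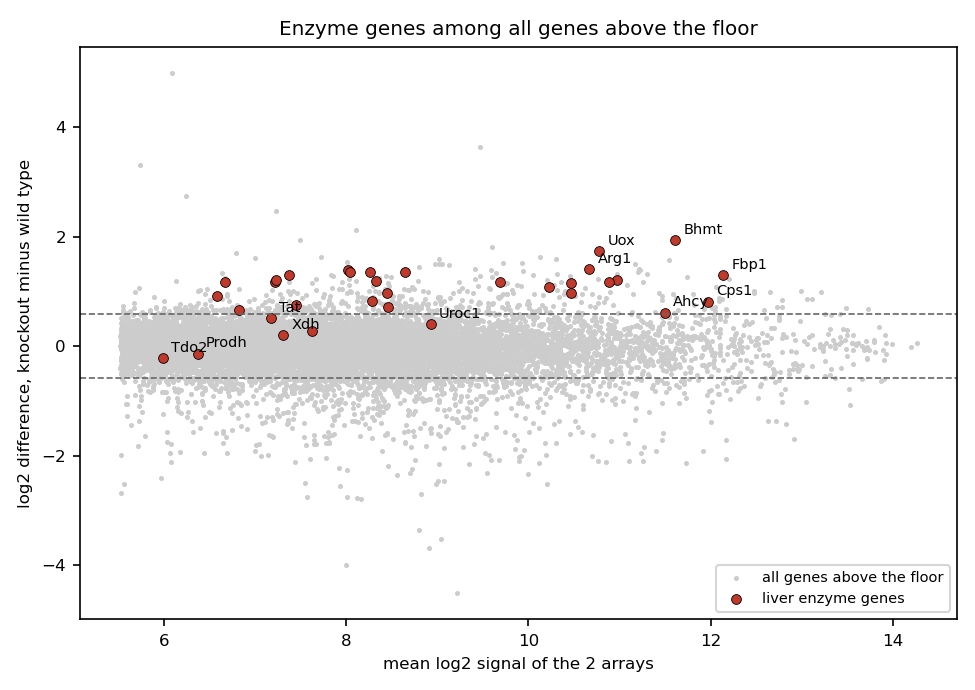
Log2 difference, knockout minus wild type (vertical axis), against the mean log2 signal of the 2 arrays (horizontal axis) for all 14094 genes above the floor (grey) and the 33 enzyme genes (red). All enzyme genes except Tdo2 and Prodh lie above 0, and Bhmt (1.94) and Uox (1.74) stand highest among them.

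Partner genes, which are relatives of a listed enzyme or carry out a like reaction, were set beside the listed enzymes. Not all partners belong to other tissues, since Prodh2 is itself a gene of liver and kidney. Of 14 pairs, 9 had both genes above the floor, and in 8 of these the listed enzyme had the larger difference. The widest gap was that of the fructose bisphosphatases: Fbp2, the muscle form, read 5.80 on the knockout-labelled array and 7.10 on the wild-type-labelled array, a difference of -1.30 (2.45-fold lower), where Fbp1 was 2.45-fold higher. G6pc3, the widely expressed glucose-6-phosphatase, differed by 0.24, Pck2, the mitochondrial carboxykinase, by 0.34, and Cad, which uses carbamoyl phosphate for pyrimidines in all dividing cells, by 0.10. Ahcyl1, a relative of Ahcy that regulates calcium channels, differed by 0.04, and Aox1, an aldehyde oxidase related to Xdh, by -0.35. Prodh2, Bhmt2 and Agxt2 were the 3 partners higher by the rule. Bhmt2, the neighbour and close relative of Bhmt, was 2.15-fold higher (10.00 on the knockout-labelled array and 8.90 on the wild-type-labelled array), and Agxt2 differed by 0.82.

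Prodh was the exception among the 9 pairs. Prodh2, the hydroxyproline dehydrogenase of liver and kidney, read 8.23 on the knockout-labelled array and 7.28 on the wild-type-labelled array, a difference of 0.95, while Prodh differed by -0.13. Arg2 and Ido1, the partners of Arg1 and Tdo2, were under the floor, with differences of -0.23 and 0.16. The partners of Mat1a, Sds and Gls2 were not analysed here.

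**Figure D4:**
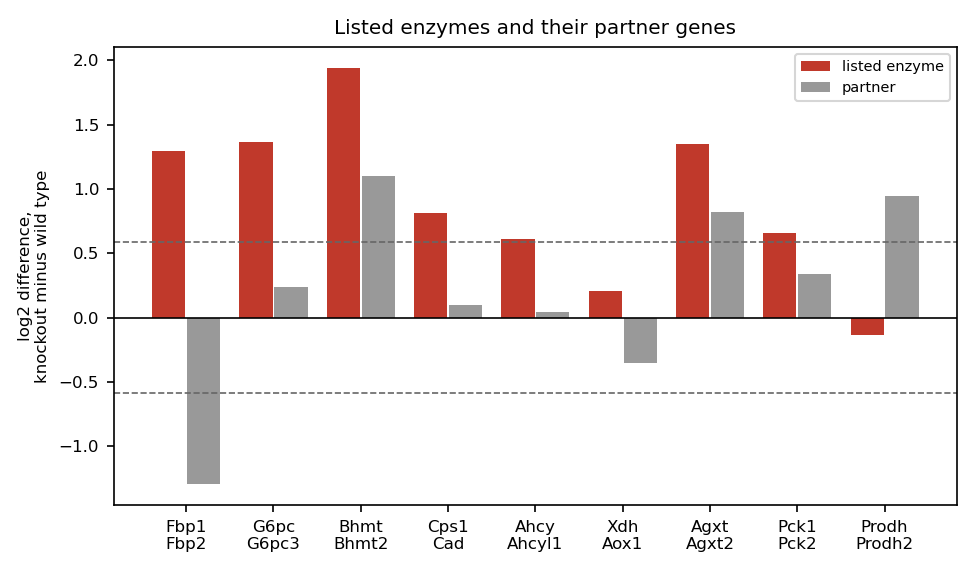
Log2 difference, knockout minus wild type, of the listed enzyme (red) and its partner gene (grey) for the 9 pairs with both above the floor, ordered by the gap between them, with dashed lines at 1.5-fold. Fbp1 and Fbp2 lie on opposite sides of 0, and Prodh is the only listed enzyme below its partner.

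Of 87 other genes of the same pathways, 74 were above the floor, with a median difference of 0.23. By the 1.5-fold rule 16 of the 74 (21.6%) were higher, against 3.83% of all genes, and 5 (6.76%) were lower, near the 6.51% of all genes. The higher ones included Pemt, the liver enzyme that makes phosphatidylcholine from S-adenosylmethionine (0.98), Aldh1l1, the folate enzyme (0.97), Gcdh, the dehydrogenase that follows Aass in lysine breakdown (0.89), Kyat3, a kynurenine aminotransferase (0.79), Pcx, pyruvate carboxylase (0.76), Slc25a13, the liver carrier that supplies aspartate to the urea cycle (0.71), and Slc37a4, the glucose-6-phosphate transporter that works with G6pc (0.66). The 5 lower genes were Ddc (-1.32), the amine-forming decarboxylase, Fbp2, Got1 (-0.96), the cytosolic aspartate aminotransferase, Dld (-0.95), a mitochondrial dehydrogenase subunit shared by several complexes, and Gpt2 (-0.63), the mitochondrial alanine aminotransferase. Serine synthesis and folate genes used by most tissues, such as Phgdh (0.40), Shmt2 (0.51) and Mthfd1 (0.17), were within the rule.

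Lists of other liver products were mostly higher on the same array, and which tissue made each transcript was not tested. Apolipoproteins and serum carriers had 12 of 16 genes higher and 1 lower, with a median difference of 0.87, led by Apoc2 (1.49), Apoc4 (1.40) and Hpx (1.32). The lower gene, Apoa4, was at -0.91, with signals of 5.30 (knockout) and 6.21 (wild type) close to the floor. Coagulation and complement proteins had 20 of 27 higher and 0 lower, with a median of 0.82, led by C8b (1.41), Hrg (1.39) and F10 (1.38). Liver cytochrome P450 genes had 14 of 25 higher and 0 lower, with a median of 0.62, led by Cyp2f2 (1.60), the bile acid gene Cyp7a1 (1.44) and Cyp2d26 (1.39). The median of the enzyme genes (1.16) was above each of these, and that order was not tested. The 3 apolipoprotein and serum carrier genes within the rule were Alb (0.07), Afp (0.20) and Ttr (0.35), all near the top of the scale. Apoa1, similarly bright at 14.07 (knockout) and 13.38 (wild type), differed by 0.68.

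Markers of other cell types are given beside the enzyme genes, and their part in the result was not tested. By the 1.5-fold rule, 3.83% of all genes above the floor were higher and 6.51% lower. Summed linear signals were 47278 (knockout) and 21104 (wild type) for the 33 enzyme genes, a ratio of 2.24. Lung epithelium genes had 3 of 7 higher and all 7 above 0, with sums of 3414 and 852. The surfactant gene Sftpc, the brightest of that list at 11.30 (knockout) and 7.65 (wild type), differed by 3.64. The lung sum on the knockout-labelled array rests largely on Sftpc, and the median difference of the lung list was 0.53. Mesothelium genes had 4 of 12 higher and 11 above 0, with sums of 16948 and 11612. Neutrophil and macrophage genes had 3 of 16 higher and all 16 above 0, with sums of 44667 and 32405. Skeletal muscle fibre genes had 19 of 25 lower and 0 higher, with sums of 70529 and 142606, a ratio of 0.495, and all 25 differences were below 0. Erythroid genes, which fetal liver also makes, had 1 of 8 higher (Car1) and 1 lower (Hba-x), with sums of 13587 and 12440.

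Kidney and intestine are further sites of several listed enzymes. Of 10 kidney tubule markers, 6 were under the floor, and the other 4, with Kap the brightest at 8.20 (knockout) and 8.16 (wild type), had differences of -0.01 to 0.22, with 0 past the rule. Of 7 intestinal markers with a probe set, 4 were above the floor, where Fabp1, which liver makes too, differed by 0.70. Fabp2, made in intestine, differed by -1.05, but its signals of 5.06 (knockout) and 6.11 (wild type) lay close to the floor. Lgals4 read 6.70 (knockout) and 7.29 (wild type), a difference of -0.58 just within 1.5-fold, and Cdx2 differed by 0.04. The median difference of the intestinal markers above the floor was -0.27. No marker was listed at 0, since RMA signals do not reach it.

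**Figure D5:**
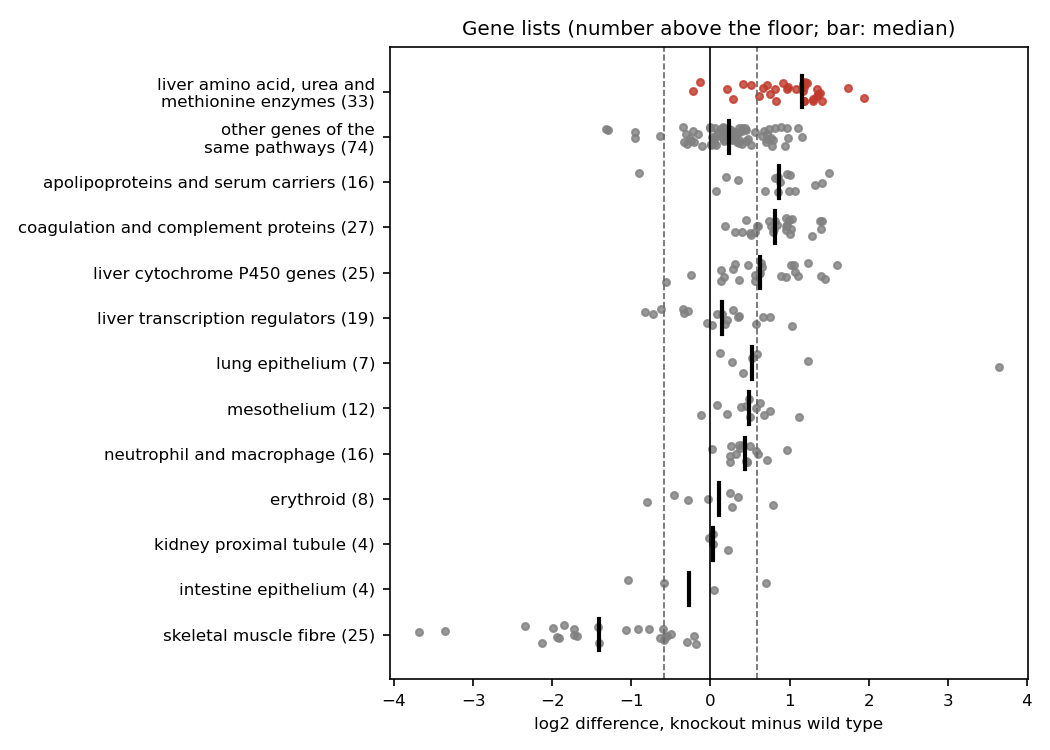
Log2 difference, knockout minus wild type, of each gene above the floor in the enzyme list (red) and in the other lists (grey), with the number of genes in brackets, a black bar at each median and dashed lines at 1.5-fold. The medians run from 1.16 for the enzymes, through 0.87, 0.82 and 0.62 for the other liver products, to -1.40 for skeletal muscle fibre genes.

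All differences are relative to the quantile-normalised median gene. Scaled to the poly-A spike-ins instead, the median over all genes moved to 0.74, with 9990 genes higher and 182 lower by 1.5-fold, against 540 higher and 918 lower as deposited. Under that scaling 32 of the 33 enzyme genes were higher, and Tdo2 and Prodh turned to differences above 0. Relative to the median gene, the order of the members is the same under both scalings.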

How the data were processed

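Total RNA of diaphragm muscle was measured on 1 Affymetrix array for each of 2 genotypes. Per the series' design text, the authors computed signals with RMA (background correction, quantile normalisation, probe summary), and, per the submitters' processing notes, Affymetrix Expression Console 1.1 was used. Values deposited are log2 signals per probe set, normalised between arrays, which removes any difference in total mRNA. Depth does not apply to arrays, whose number limits the precision.

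Of 45101 probe sets, 34958 carried 1 gene symbol in the platform annotation, 932 several, and 9160 none besides 51 controls. The 34 measured members matched RefSeq (GRCm38.p6) by Entrez identifier with unchanged symbols. From the deposited log2 values, differences (knockout minus wild type) were computed with Python 3.11.15, pandas 2.3.3 and statsmodels 0.14.6. The probe set with the highest mean stood for each gene, with a floor at the 40th percentile of mean signal (5.52) and a 1.5-fold size rule in place of a test. Members and lists were chosen with earlier results of these data known. Named genes were all members, their partners, and in other lists up to 4 genes past 1.5-fold in each direction and the brightest marker. Further pathway steps (Afmid and Phgdh among them) and list genes (such as Afp, Ttr and Apoa1) were named for their position or after their values were seen. Alternatives were the mean over probe sets, no floor or the 60th percentile, median centring, loess (fraction 0.3), probe sets without the _s_at, _x_at and _a_at kinds, 2-fold, and, added after seeing the data, poly-A scaling.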

Additional observations from a re-analysis of the deposited data

How the results depend on the processing

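Median centring, loess, no floor, a floor at the 60th percentile, the mean over probe sets and restriction to probe sets not named _s_at, _x_at or _a_at gave 25 to 27 enzyme genes higher, 0 lower and a median difference of 1.12 to 1.17. The 25 were of only 30 members that kept a probe set above the floor under that restriction, where the other settings held 31 to 34. Of all genes, 3.3% to 4.3% were higher under these settings. At 2-fold, 18 of 33 enzyme genes were higher, and of 74 other pathway genes 2 were higher and 2 lower. By that rule 128 of all 14094 genes were higher and 326 lower. Scaling to poly-A spike-ins, added after seeing the data, adds 0.75 to each difference and gave a median of 1.91 for the enzyme genes. Under it 61 of 74 other pathway genes were higher and 0 lower, beside 70.9% of all genes higher. Hgd was the only member to move by more than the pooled SD under the other alternatives, to 0.46 when its probe sets were averaged. No paired analysis was possible because each genotype has 1 array, and no replicate could be left out. Dim genes such as Tdo2 and Ass1 are limited by signal near or under the floor.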

Other observations

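Regulators of liver genes differed in both directions. Of 19 above the floor, 3 were higher by at least 1.5-fold and 3 lower (15.8% each), with a median difference of 0.15. Over all genes above the floor, 3.83% were higher and 6.51% lower. Nr1h4, the bile acid receptor, read 7.70 on the knockout-labelled array and 6.67 on the wild-type-labelled array (difference 1.03), Cebpa read 8.97 and 8.21 (0.76), and Foxa2, also a lung factor, read 7.60 and 6.94 (0.67). Hnf4a, a nuclear receptor that drives many liver enzyme genes, differed by 0.57, just under the rule. Lower were Tbx3 (-0.83), Esrra (-0.72) and Ppargc1a (-0.63), the last a coactivator of mitochondrial genes in muscle and of gluconeogenic genes in liver. Nr3c1, the glucocorticoid receptor, differed by -0.34, and Ppara by 0.01.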
